A study of Mus musculus with 109 samples.

Results

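The genes described here encode the receptors for the neurotransmitters GABA, glycine and glutamate. They were chosen by symbol among the protein-coding genes of the count table. The rule reads no measured value, but the genes were chosen with earlier results of these data known. They are the GABA-A, rho and GABA-B receptor subunits, the glycine receptor subunits, the AMPA, kainate, NMDA and delta ionotropic glutamate receptor subunits, and the metabotropic glutamate receptors of groups I, II and III. The rule found 51 of the 37315 genes counted, and it left out Grm6, the receptor of ON bipolar cells. The study sequenced RNA of whole retinas, 109 from 64 mice aged 2 to 4 months, and 45 mice contributed both eyes. Eyes were injected into the vitreous with the cytokine TNF, the cytokine IL1A, both together (IL1A+TNF) or PBS, and the WT mice were C57BL/6J.

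The first batch (as the labels name it) held WT retinas only. At day 2 after injection it had 31 PBS, 8 TNF, 9 IL1A and 10 IL1A+TNF retinas, at day 14 it had 7 PBS and 6 TNF retinas, and at day 35 it had 6 PBS and 9 TNF retinas. The second batch, all from day 2, held 5 WT PBS, 6 WT IL1A+TNF, 6 Sarm1-/- PBS and 6 Sarm1-/- IL1A+TNF retinas. Sarm1-/- mice lack Sarm1, an enzyme of the axon degeneration pathway, in the whole body, so every cell type of their retinas carried the deletion. Total counts on genes ranged from 30014757 to 79064488 (median 39374202) per retina. Levels are given as CPM, the counts scaled to a common library size with TMM factors, and fold changes on the log2 scale with the standard error (SE) and the false discovery rate (FDR) of limma.

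GABA and glycine open chloride channels that inhibit retinal neurons, and GABA also acts on the G protein-coupled GABA-B receptor. Glutamate, released by photoreceptors and bipolar cells, opens the AMPA, kainate and NMDA channels and acts on the G protein-coupled mGlu receptors. Amacrine and horizontal cells supply most of the inhibition, rho receptors sit mainly on bipolar cell terminals, and ganglion cells carry AMPA and NMDA receptors. In whole retinas, fewer cells of a type and less RNA per cell cannot be told apart.

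In WT PBS retinas of day 2 (first batch, n = 31, mean ± SD throughout), 49 of the 51 members passed the filter on low counts. The other 2, Gabra6 and Gabrp, had means of 0.0120 and 0.0134 CPM and were at a median of 0. Levels between genes were compared per kilobase of annotated exon (RPKM). The highest were Gabrr1 (30.3 ± 3.16 RPKM), the main rho subunit, Gabbr1 (29.6 ± 1.20), the ligand-binding subunit of the GABA-B receptor, and Gabrr2 (28.5 ± 2.03), whose ranges of 1 SD overlapped.

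Summed by class, the levels were 95.3 ± 6.50 RPKM for GABA-A, 63.5 ± 4.85 for rho, 44.4 ± 2.47 for AMPA and 40.1 ± 1.87 for GABA-B. Glycine (33.6 ± 2.32) and kainate (32.8 ± 1.77) receptors lay close together, and NMDA receptors were at 11.6 ± 0.8501 RPKM. The mGlu groups III, I and II followed at 9.08 ± 0.645, 6.49 ± 0.666 and 3.16 ± 0.248, and the delta receptors were at 4.23 ± 0.353. Within classes, Gria4 (16.5 ± 1.01 RPKM) was the highest AMPA subunit, and Gria2 (10.05 ± 1.29), which sets the calcium permeability of the channel, made up 22.6 ± 2.15% of the summed AMPA level. Glrb (15.5 ± 1.49), the shared beta subunit, was highest among glycine receptors, Grik5 (14.6 ± 0.687) and Grik1 (14.0 ± 1.28) among kainate receptors, and Grin1 (5.65 ± 0.453), the obligatory NMDA subunit, among NMDA receptors.

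**Figure D1:**
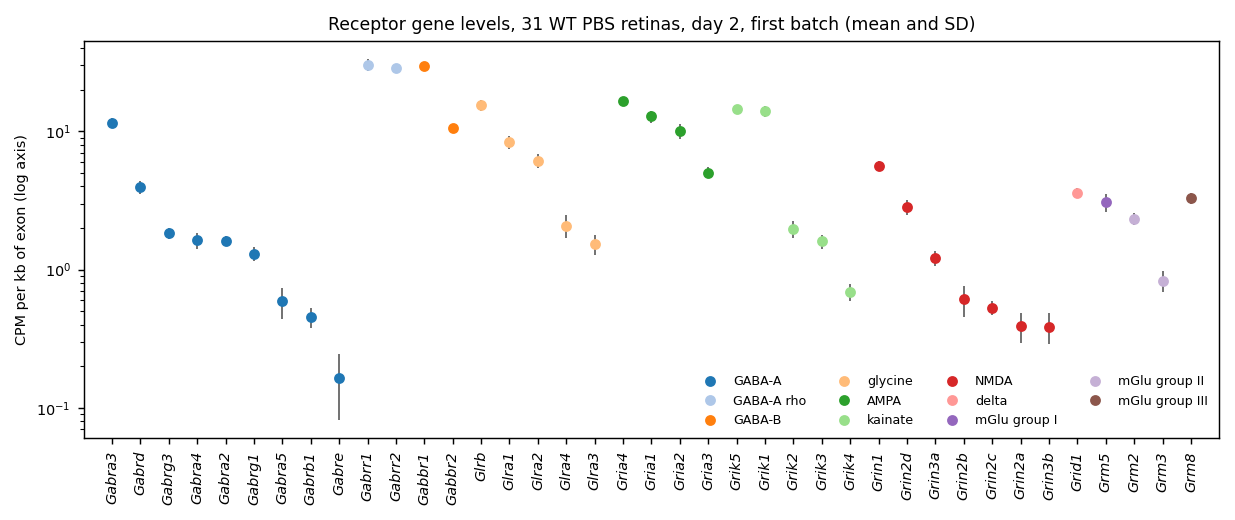
Level of receptor genes in the 31 WT PBS retinas of day 2 (first batch), in RPKM on a log axis, by receptor class. Points are means and bars are 1 SD; Gabrr1, Gabbr1 and Gabrr2 stand highest, with means from 28.5 to 30.3 RPKM. Gabra6 and Gabrp, which did not pass the filter, and some other members are not drawn.

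The first comparison asked which receptor genes differed in WT retinas 2 days after IL1A+TNF. Most were lower: 38 of the 49 tested passed the test, 34 lower and 4 higher, with a median log2 difference of -0.24. Over all 19548 genes tested, 50.4% were called, 24.9% higher and 25.5% lower, and the median was -0.02. So the share of members called was above that background, and the lower calls made up most of it. The fitted log2 differences ran from -0.67 to 0.29, and for 50 of the 51 members the IL1A+TNF and PBS retinas overlapped. Of all genes tested, 0.379% had every IL1A+TNF retina below every PBS retina.

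AMPA receptors carry fast excitation, and all 4 subunits changed. Gria4 ranged from 86.8 to 115 CPM (median 105) in PBS and from 67.8 to 94.8 (median 85.9) in IL1A+TNF, and fell by 0.31 (SE 0.0372, FDR = 3.43e-10). Gria2 went from a median of 154 CPM (124 to 201) to 124 (105 to 135), a log2 difference of -0.36 (SE 0.0576, FDR = 3.59e-07), and Gria3 from 49.6 (42.2 to 59.5) to 40.3 (32.3 to 45.5), a difference of -0.31 (SE 0.0452, FDR = 4.49e-08). In all 3 the groups overlapped. Gria1 moved the other way: PBS retinas had a median of 77.7 CPM (63.6 to 98.2) and IL1A+TNF retinas 93.5 (84.8 to 109), a log2 difference of 0.29 (SE 0.0509, FDR = 2.19e-06). In the 8 mice with an IL1A+TNF eye and a PBS eye, Gria1 was higher in the IL1A+TNF eye in 8 of 8, and Gria2 and Gria4 were lower in 8 of 8. Of all genes tested, 11.4% were higher and 9.34% lower in each of the 8 mice. The share of Gria2 in the summed AMPA level was 19.1 ± 1.40% (n = 10) with IL1A+TNF.

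Of the 16 GABA-A subunits 14 were tested and 10 fell, and none rose. Gabra4, an alpha subunit of extrasynaptic receptors, showed the largest difference of all members: PBS retinas ranged from 7.34 to 12.4 CPM (median 10.1) and IL1A+TNF retinas from 4.63 to 8.53 (median 6.07), a log2 difference of -0.67 (SE 0.0841, FDR = 8.36e-10), and it was lower in 8 of 8 mice. Only the upper end of the IL1A+TNF retinas reached the PBS range. Gabra3 fell by 0.31 (SE 0.0459, FDR = 5.63e-08), from a median of 46.0 CPM (37.9 to 51.6) to 35.8 (31.2 to 41.6). The 4 subunits that did not pass were Gabra5, Gabrd, Gabre and Gabrg1, with log2 differences of -0.19, -0.12, -0.17 and -0.08.

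Gabra4 and Gabrb1, another beta subunit, are neighbours on chromosome 5 that read in opposite directions from start sites 387 bases apart (GRCm38.p6, positions 71658308 and 71657921), so that their first exons overlap. Both fell with IL1A+TNF, Gabrb1 by 0.46 (SE 0.0923, FDR = 2.60e-05), from a median of 6.41 CPM (3.71 to 8.25) to 4.55 (3.13 to 6.08). The strand setting of the counting is not given in the sources used here, so reads of the overlap could count for either. The RefSeq windows from 250 bases before to 50 after each start are shown because the members lie in 1 stretch of the genome and moved together. Capitals mark a match to the motif of the factor NRF1, and the Gria2 window (chr3:80802786-80803085, minus strand) is shown as the other member window that holds it.
Gabra4, chr5:71658259-71658558, minus strand: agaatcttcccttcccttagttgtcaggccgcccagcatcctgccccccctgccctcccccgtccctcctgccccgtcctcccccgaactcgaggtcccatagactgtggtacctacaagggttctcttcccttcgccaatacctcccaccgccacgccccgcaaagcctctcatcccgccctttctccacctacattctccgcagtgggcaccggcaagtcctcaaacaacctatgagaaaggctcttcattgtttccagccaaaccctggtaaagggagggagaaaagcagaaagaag
Gabrb1, chr5:71657671-71657970, plus strand: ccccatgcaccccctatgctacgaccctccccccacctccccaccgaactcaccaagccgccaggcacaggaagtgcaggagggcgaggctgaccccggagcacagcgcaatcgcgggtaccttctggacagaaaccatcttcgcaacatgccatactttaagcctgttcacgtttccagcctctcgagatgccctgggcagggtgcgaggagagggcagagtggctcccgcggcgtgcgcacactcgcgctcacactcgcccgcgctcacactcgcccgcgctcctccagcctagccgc
Gabrb1, second start, chr5:71699682-71699981, plus strand: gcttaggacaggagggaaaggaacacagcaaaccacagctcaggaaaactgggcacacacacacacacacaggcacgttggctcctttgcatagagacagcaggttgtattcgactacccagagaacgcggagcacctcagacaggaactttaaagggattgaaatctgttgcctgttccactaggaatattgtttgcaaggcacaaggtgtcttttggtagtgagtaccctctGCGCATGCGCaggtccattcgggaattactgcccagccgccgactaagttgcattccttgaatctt
Gria2, chr3:80802786-80803085, minus strand: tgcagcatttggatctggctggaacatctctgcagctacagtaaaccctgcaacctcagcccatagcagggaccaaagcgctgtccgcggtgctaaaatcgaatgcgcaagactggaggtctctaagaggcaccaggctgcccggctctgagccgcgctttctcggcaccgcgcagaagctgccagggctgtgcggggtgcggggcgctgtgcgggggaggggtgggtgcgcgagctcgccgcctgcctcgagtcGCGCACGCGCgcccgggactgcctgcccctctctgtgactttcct
Windows were found for 35 of the 51 members, 42 in all. On both strands, the NRF1 motif was in 2 of the 42 against 4.60% of all 32851 windows. The CRE motif TGACGTCA, the AP-1 motif TGAGTCA and the NF-kB motif were in 0 of the 42, against 1.79%, 5.20% and 0.155% of all windows.

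The 3 rho subunits fell. Gabrr1 had a median of 69.7 CPM (50.3 to 83.3) in PBS and 52.8 (39.6 to 66.3) in IL1A+TNF, a log2 difference of -0.42 (SE 0.0574, FDR = 9.40e-09), and was lower in 8 of 8 mice. Both GABA-B subunits fell: Gabbr2, the subunit that couples to G proteins, from 71.0 CPM (59.5 to 82.5) to 56.0 (46.0 to 70.8), a difference of -0.33 (SE 0.0486, FDR = 8.03e-08), and Gabbr1 from 231 (205 to 246) to 207 (186 to 226), a difference of -0.16 (SE 0.0249, FDR = 4.07e-07). The Gabbr1 change was small but each IL1A+TNF eye was lower than its fellow eye in 8 of 8 mice.

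Among glycine receptors, Glra1, Glra2 and Glra4, alpha subunits, fell by 0.40, 0.37 and 0.45 (SE 0.0662, 0.0685 and 0.0926), while Glra3 and Glrb had log2 differences of -0.05 and -0.10 and did not pass. Glra1 went from a median of 19.9 CPM (15.3 to 25.4) to 14.5 (12.1 to 20.6), with overlap.

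Of the 7 NMDA subunits 4 fell. Grin2d, a subunit that gives slow channels with weak magnesium block, had 18.9 CPM (13.9 to 24.4) in PBS and 12.4 (10.7 to 16.1) in IL1A+TNF, a log2 difference of -0.56 (SE 0.0624, FDR = 3.17e-11), and was lower in 8 of 8 mice. Grin3a, a glycine-binding subunit, fell by 0.46 (SE 0.0753, FDR = 5.70e-07), from 15.004 CPM (11.2 to 18.7) to 10.8 (7.08 to 13.4). Grin1 fell by 0.15 (SE 0.0407, FDR = 1.09e-03) and Grin2c by 0.20. Grin2a, Grin2b and Grin3b had log2 differences of -0.31, -0.26 and -0.14 that did not pass. Grin3b overlaps exons of the abundant gene Tmem259 on the other strand, so its value is uncertain.

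Kainate receptors held other members that rose. Grik3 rose by 0.22 (SE 0.0573, FDR = 1.02e-03), from a median of 14.0 CPM (11.99 to 18.3) to 16.8 (12.3 to 20.02), and Grik1 by 0.16 (SE 0.0499, FDR = 5.28e-03), from 95.4 (72.2 to 108) to 107 (84.7 to 125). Grid1, a delta receptor, fell by 0.34 (SE 0.0477, FDR = 2.43e-08), from 21.6 (16.7 to 24.6) to 17.5 (13.05 to 18.9). Grik5, a high-affinity kainate subunit, fell by 0.14 (SE 0.0297, FDR = 6.08e-05), and Grik2 and Grik4 did not pass, with differences of -0.15 and 0.14.

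Receptors of each mGlu group fell. Grm8, a group III receptor that limits transmitter release, had the smallest FDR of all members: it ranged from 27.9 to 40.6 CPM (median 32.9) in PBS and from 18.2 to 25.8 (median 20.9) in IL1A+TNF, a log2 difference of -0.59 (SE 0.0519, FDR = 1.38e-14). Grm8 was the 1 member of 51 whose 10 IL1A+TNF retinas all lay below all 31 PBS retinas, and it was lower in 8 of 8 mice. Grm3 of group II fell by 0.54 (SE 0.115, FDR = 8.44e-05), from 2.58 CPM (1.40 to 3.16) to 1.75 (1.00 to 2.23). Grm5 of group I fell by 0.38 (SE 0.0753, FDR = 1.89e-05), from 31.5 (16.5 to 39.3) to 24.2 (19.1 to 28.3).

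**Figure D2:**
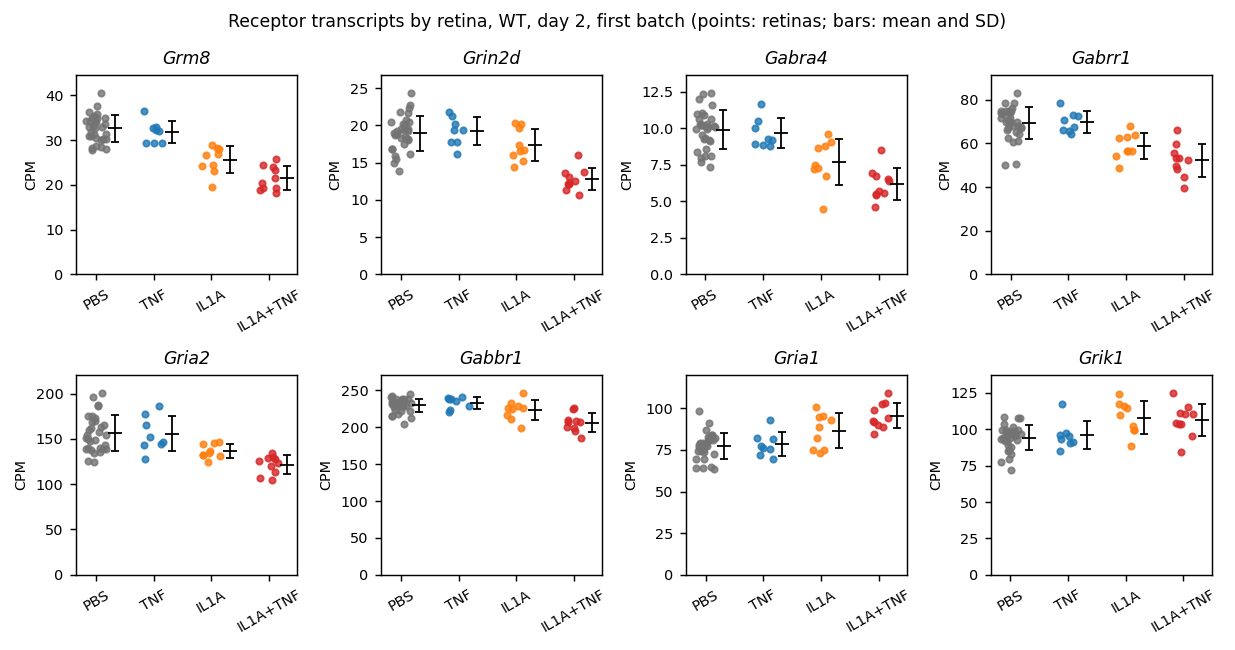
CPM of receptor genes in each WT retina of day 2, first batch, for PBS (31), TNF (8), IL1A (9) and IL1A+TNF (10); each point is 1 retina and the bars are the mean and 1 SD. Grm8 of the IL1A+TNF retinas (18.2 to 25.8 CPM) lies below every PBS retina (27.9 to 40.6), while Gria1 is higher with IL1A+TNF and overlaps.

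Across the 8 mice with both eyes, 14 members were lower in every IL1A+TNF eye than in its fellow PBS eye and 1, Gria1, was higher in every one, so the share of members was above that of all genes for lower and below it for higher. The median difference of the 49 members ranged from -0.50 to -0.02 between mice. Markers of other cells moved in the same retinas. Ganglion cell markers were lower for 11 of 12 (median log2 difference -0.26, summed level 671 to 830 CPM against 728 to 1011 in PBS), amacrine markers for 9 of 10 (-0.25, 689 to 945 against 846 to 1090), bipolar markers for 8 of 10 (-0.38, 811 to 1404 against 1024 to 1619), rod markers for 7 of 8 (-0.53) and cone markers for 8 of 8 (-0.90). Leukocyte markers were higher for 6 of 7 (3.32, 120 to 506 CPM against 4.67 to 90.04) and microglial markers for 7 of 9, with 1 lower (1.02). Of the leukocyte markers, Cd3e was at 0 in 51 of the 109 retinas, Ly6c2 in 25, S100a8 in 12, S100a9 in 11 and Ccr2 in 5. The part of cell numbers in the receptor differences was not tested.

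The genes that serve the receptors were read from 4 lists, also chosen with earlier results of these data known. In this comparison 24.9% of all genes tested were called higher and 25.5% lower. Of 15 genes for making, transporting or clearing GABA and glycine, 11 passed, 10 lower and 1 higher (median -0.15). They included the glycine transporter Slc6a9 (-0.39, SE 0.0409, FDR = 6.04e-12), the glutamine synthetase of Müller glia Glul (-0.99, SE 0.110, FDR = 3.22e-11), the chloride exporter Slc12a5 (-0.33), and the GABA-making enzymes Gad1 (-0.31) and Gad2 (-0.18). Slc6a9, Gad1 and Gad2 are also among the amacrine markers counted above, so the counts of both lists share genes. Of 12 tested scaffolds and auxiliary proteins of GABA and glycine receptors (14 listed), 11 passed, 9 lower and 2 higher (median -0.22). Gphn, the gephyrin scaffold, fell by 0.21 (SE 0.0299, FDR = 1.76e-08) and Gabarap, a trafficking protein also used in autophagy, rose by 0.57 (SE 0.0665, FDR = 1.00e-10).

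For glutamate, beside the same 24.9% of all genes higher and 25.5% lower, 12 of 15 transmitter genes passed, 9 lower and 3 higher (median -0.16). The vesicular transporter Slc17a7 fell by 0.51 (SE 0.0586, FDR = 7.90e-11) and Slc1a2, a glutamate transporter, by 0.29, while the transporters Slc1a1 and Slc1a3 rose by 0.36 and 0.32. Of 38 scaffolds and auxiliary proteins 28 passed, 26 lower and 2 higher (median -0.17), with the postsynaptic scaffold Dlg4 at -0.31 (SE 0.0425, FDR = 9.31e-09) and the AMPA anchor Grip2 at -0.42 (SE 0.0580, FDR = 1.35e-08).

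IL1A alone was compared with PBS to see how much of this it gave without TNF. It called 18 of 49 members, 4 higher and 14 lower, with a median log2 difference of -0.13; the background was 12% of genes higher and 9.45% lower. Gria1 (0.16), Grik1 (0.20) and Grik3 (0.21) were among the higher, as they were with IL1A+TNF, and all 18 were among the 38. Because both comparisons used the same PBS retinas, this overlap is not independent. Grm8 ranged from 19.5 to 28.96 CPM (median 26.7) in the 9 IL1A retinas and fell by 0.36 (SE 0.0531, FDR = 3.89e-07). Gria4 (median 91.1 CPM, 77.1 to 100) fell by 0.20, Gabra3 (40.5, 28.2 to 42.9) by 0.23, Gabra4 (7.51, 4.50 to 9.58) by 0.38, Gabbr2 (61.7, 43.99 to 70.96) by 0.22 and Gabra2 (10.3, 8.56 to 12.4) by 0.24, with FDR from 4.15e-05 to 1.54e-03. All overlapped with PBS. With mouse as a fixed factor, a replicate block that rests on the 7 mice with both eyes, 1 member was called, Grm8, against 6.76% of all genes, and 21 were at an unadjusted p under 0.05. Ganglion cell markers were lower for 9 of 12 and amacrine markers for 8 of 10 in these retinas, and leukocyte markers higher for 5 of 7.

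With TNF alone at day 2, 0 of 49 members were called by limma (background 0.655% of genes), with 2 at an unadjusted p under 0.05. Grik3 came closest, at 14.6 to 20.2 CPM (median 16.6) and a log2 difference of 0.23 (FDR = 0.0725). edgeR and DESeq2 each called 1 member, Grik3, at FDR = 0.0452 and 0.0332. The shares of all genes that edgeR and DESeq2 called are not given here, so this count has no background beside it. Grik3 was higher in the TNF eye of 8 of 8 mice, as were 0.43% of all genes tested. Grm8 had a median of 32.2 CPM with TNF and 32.9 with PBS, and Gabra4 of 9.22 and 10.1.

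IL1A+TNF was then compared with IL1A directly. It was lower for 7 members against 4.68% of all genes called lower. The largest was Grin2d, at a median of 16.6 CPM (14.5 to 20.3) in IL1A and 12.4 (10.7 to 16.1) in IL1A+TNF, a log2 difference of -0.43 (SE 0.0783, FDR = 1.75e-04). The others included Glra1 (-0.29), Grm5 (-0.30), Grm8 (-0.24), Grik5 (-0.15) and Gabbr1 (-0.11), with FDR from 6.18e-03 to 0.0332. This count depended on single retinas: it was 4 without IL1A replicate 7, 14 without IL1A replicate 8 and 12 without IL1A+TNF replicate 9. The share of all genes called without each of these retinas is not given here.

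The departure from additivity asked whether IL1A+TNF differed from the sum of the IL1A and TNF differences. It was lower for 4 members (background 1.82% lower): Grin2d by -0.46 (SE 0.101, FDR = 5.94e-03), Glra1 by -0.41 (SE 0.108, FDR = 0.0247), Grm5 by -0.42 (SE 0.124, FDR = 0.0410) and Glra4 by -0.51 (SE 0.150, FDR = 0.0431). Their TNF differences were 0.03, 0.12, 0.13 and 0.20 and their IL1A differences -0.13, -0.11, -0.09 and -0.14, none past the threshold alone. The count was 1 without TNF replicate 6 and 7 without IL1A+TNF replicate 9.

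**Figure D3:**
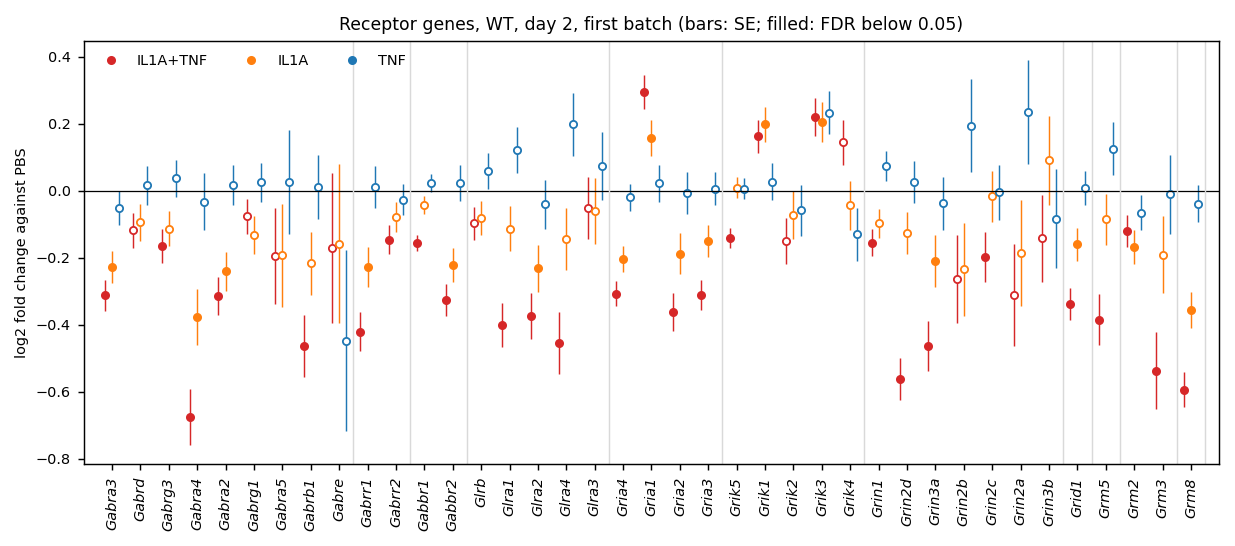
Fitted log2 difference from PBS of tested receptor genes in WT retinas of day 2, first batch, for TNF, IL1A and IL1A+TNF, by class; bars are 1 SE and filled points passed FDR under 0.05. Most IL1A+TNF points lie below 0, while Gria1, Grik1 and Grik3 lie above it and passed, and Grik4 lies above it and did not.

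At later days TNF alone gave 0 called members at day 14 (6 TNF against 7 PBS retinas) and 0 at day 35 (9 against 6), with backgrounds of 0% and 0% of all genes. At an unadjusted p under 0.05, 2 members passed at day 14 and 2 at day 35, and the log2 differences lay between -0.14 and 0.14 at day 14 and between -0.19 and 0.21 at day 35. IL1A and IL1A+TNF were not analysed at those days.

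PBS retinas themselves differed between days. Over days 2, 14 and 35, 23 of 49 members differed (F test, background 36.2%). Whether the share of members lies above that of all genes was not tested. The 7 PBS retinas of day 14 came from 6 mice, and the F test did not block on mouse. Grin3a had a median of 15.004 CPM (11.2 to 18.7) at day 2, 18.7 (16.8 to 20.3) at day 14 and 19.04 (17.0004 to 20.5) at day 35 (FDR = 1.98e-06). Gabbr2 went from 71.0 to 78.7 and 85.1 (FDR = 2.08e-06), and Gabrr1 from 69.7 to 73.3 and 89.9 (FDR = 1.48e-05). Grm8 went from 32.9 to 37.3 and 39.9 and Gabrr2 from 59.8 to 63.6 and 72.0. Of the 23, 20 were higher at both later days than at day 2 in the fit, while Gria1 was lower at both. Of all 7016 genes called, 40.6% were higher at both later days and 45.7% lower at both. Days after injection and the age of the mice cannot be told apart here.

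The second batch repeated IL1A+TNF in WT mice beside Sarm1-/- mice. Sarm1 itself was at 84.3 to 125 CPM in the 11 WT retinas of that batch and at 26.1 to 52.9 CPM in the 12 Sarm1-/- retinas, without overlap. Of the Sarm1-/- IL1A+TNF retinas 2, replicates 4 and 5, stood apart, in the receptor genes themselves as in cell type markers. They were picked after these values were seen, so results without them are not independent of the receptor values. Against the WT PBS retinas of the batch, the median member was at -2.95 and -2.92 on the log2 scale in those 2, and at 0.00, -0.10, -0.65 and -0.11 in replicates 1, 2, 3 and 6. Their total counts, 52948994 and 48796849, lay within the range of the batch. Their PBS-injected fellow eyes were at -0.07 and 0.07. Their ganglion cell markers summed to 183 and 157 CPM against 813 to 907 in Sarm1-/- PBS retinas, amacrine markers to 144 and 157 against 909 to 1039, bipolar markers to 317 and 304 against 1286 to 1590, and horizontal markers to 14.7 and 11.3 against 86.8 to 104. Rod markers summed to 28350 and 24388 against 40311 to 53613. Replicates 3, 4 and 5 were the 3 females of the group, so sex and these values cannot be told apart within it. The counts of members called in each Sarm1-/- comparison are therefore given with and without those 2 retinas.

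**Figure D4:**
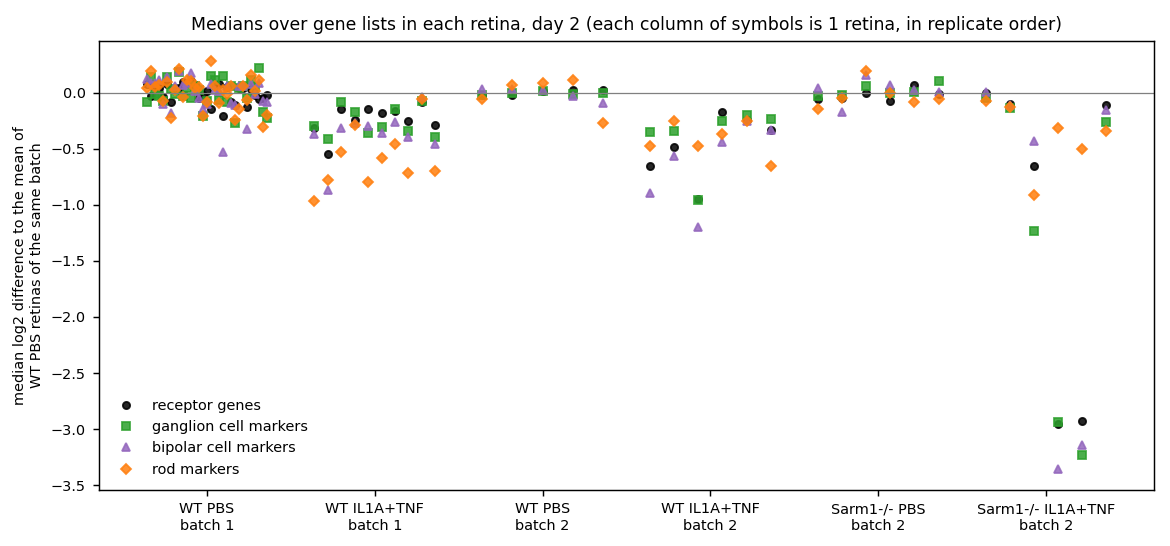
Median log2 difference from the mean of the WT PBS retinas that share its batch, in each day 2 retina of 6 groups, over the tested receptor genes (black) and over the ganglion cell, bipolar cell and rod markers; each column of symbols is 1 retina. For receptor genes 2 Sarm1-/- IL1A+TNF retinas lie at -2.95 and -2.92 and the others between -0.95 and 0.11.

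In WT retinas of the second batch, 28 of 51 members had all 6 IL1A+TNF retinas below all 5 PBS retinas, as did 9.98% of all genes tested. The fit of that batch called 3 of 49, all lower (Grm8, Grin2d and Glra4), with a median of -0.42 and a background of 7.55% of genes lower. Without the 2 Sarm1-/- retinas, whose spread that fit shares, it called 40, 2 higher and 38 lower, with a background of 20.2% higher and 18.6% lower. Gria1, Grik1 and Grik3, which rose in the first batch, were not among the 40. Against the mean of the PBS retinas, Gria1 was higher in 4 of the 6 IL1A+TNF retinas. Grik1 and Grik3 were each higher in 3 of 6 and lower in 3. A fit of the 5 WT mice with both eyes alone, with mouse as a fixed factor (replicate block), called 33, against 29.6% of all genes. Grm8 was at 17.2, 19.9, 17.2, 23.6, 23.4 and 19.4 CPM in the IL1A+TNF retinas and at 32.6, 34.3, 32.9, 35.8 and 30.3 in PBS, a log2 difference of -0.72 (SE 0.171, FDR = 5.40e-03). The groups did not overlap. Grin2d, at 11.5, 13.7, 11.3, 15.4, 13.9 and 13.1 CPM against 17.9, 20.02, 21.6, 20.7 and 17.9, differed by -0.55 (SE 0.161, FDR = 0.0196), and Glra4 by -0.73 (SE 0.253, FDR = 0.0440). Without the 2 retinas Gabra4 was at -0.99 (SE 0.186, FDR = 5.04e-04), Gria2 at -0.69 (SE 0.113, FDR = 1.39e-04) and Grik4 at 0.23 (SE 0.0899, FDR = 0.0456).

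In Sarm1-/- mice IL1A+TNF was compared with PBS in the fit of both batches (81 retinas). It called 44 of 49 members, 43 lower and 1 higher, with a median of -1.01 and a background of 21.3% of genes higher and 22.2% lower. Without the 2 retinas 50 members were tested, among them Gabrp, at a mean of 0.0134 CPM in WT PBS retinas of day 2, first batch. Of the 50, 10 were called, 9 lower and 1 higher, with a median of -0.23 and a background of 6.21% higher and 6.76% lower. The 9 were Grm8, Gabrg3, Grid1, Gabrg1, Gria3, Grin2d, Gabbr2, Gria4 and Gabra3. Several of them leaned on replicate 3. Against the fellow PBS eye, Gabbr2 was at -1.08 in replicate 3 and at 0.14, -0.11 and -0.17 in replicates 1, 2 and 6. In the same order, Gabrg3 was at -1.05 against -0.02, -0.12 and -0.08, and Grid1 at -0.75 against 0.00, -0.12 and -0.25. Gabra3 was at -0.58 against -0.00, -0.16 and -0.29. With the second batch alone and without the 2 retinas the count was 1, Grm8, with a background of 1.3% lower. With mouse as a fixed factor (replicate block, 6 mice with both eyes, the 2 retinas in) limma called 0 of 49 members and 0% of all genes, with a median member of -0.75 and 7 members at an unadjusted p under 0.05.

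Grm8 was at 28.8, 24.99, 15.8, 12.3, 11.1 and 23.3 CPM in Sarm1-/- IL1A+TNF retinas 1 to 6 and at 27.2, 31.95, 36.5, 32.7, 32.7 and 30.9 in the PBS retinas. Replicates 3, 4 and 5 were lowest, and the groups overlapped through replicate 1. The log2 difference was -0.77 (SE 0.107, FDR = 7.65e-08), and -0.50 (SE 0.1002, FDR = 2.67e-04) without the 2 retinas. Gria2 was at 136, 121, 106, 17.4, 14.5 and 127 CPM against 141, 151, 160, 141, 162 and 155, with every IL1A+TNF retina below every PBS retina. Gabra3 and Gria4 were the other 2 members without overlap, a pattern that 2.21% of all genes tested showed, with Gabra3 at 42.5, 41.7, 31.4, 6.03, 5.04 and 38.5 CPM against 42.6 to 47.2. In those 3 the replicate 1 retina lay just under the lowest PBS retina.

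The members did not fall alike in the 2 retinas. Against the PBS eye of the same mouse, Grm5 was at -3.98 and -4.07 on the log2 scale, Gabrr1 at -3.74 and -4.06 and Gabra4 at -3.98 and -3.79. Gabbr1 was at -0.85 and -1.04, Grik5 at -0.75 and -0.80, Grin2d at -1.13 and -1.21 and Grm8 at -1.40 and -1.56. Grik4, a high-affinity kainate subunit, was higher in both, at 6.74 and 5.95 CPM against 3.90 and 4.10, and it was higher in the IL1A+TNF eye of 6 of 6 Sarm1-/- mice (log2 difference 0.39, SE 0.0995, FDR = 8.83e-04), as were 9.47% of all genes tested. Without the 2 retinas Grik4 was at 0.24 (SE 0.101, FDR = 0.108) and did not pass. In the other 4 mice the median member was at 0.06, -0.08, -0.65 and -0.13.

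**Figure D5:**
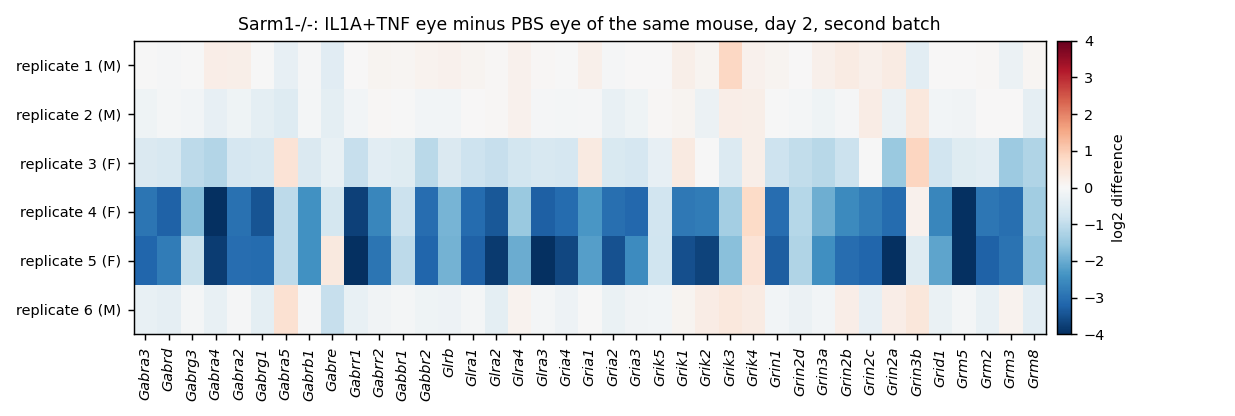
Log2 difference between the IL1A+TNF eye and the PBS eye of each of the 6 Sarm1-/- mice (rows) for tested receptor genes (columns), in colour. Replicates 4 and 5 are low for most genes, with medians of -2.81 and -3.03 over the 49 tested, and Grik4 is higher in all 6.

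With PBS alone, Sarm1-/- and WT retinas differed in 0 of 49 members by limma (background 0.0397%, 0 members at an unadjusted p under 0.05), and edgeR and DESeq2 called 0 and 0. Without the 2 retinas, whose spread the fit shares, limma called 0 of 50 (background 0.0439%), with 4 at an unadjusted p under 0.05 and log2 differences from -0.22 to 0.82. The 50 include the near-absent Gabrp. In the second batch alone without the 2 retinas, the 49 tested ran from -0.32 to 0.20. With IL1A+TNF, Sarm1-/- retinas were lower than WT for 32 members (median -0.64, background 10.8% lower), among them Grin1 (-0.93, SE 0.208, FDR = 2.61e-03), Gabrd (-0.82), Grm2 (-0.79), Gria1 (-0.77) and Gabrg1 (-0.79). Without the 2 retinas 0 were called, with a background of 0.898%, 18 members at an unadjusted p under 0.05 and a median of 0.16, so that the direction turned. edgeR called 0 and DESeq2 1 with the 2 retinas in. The shares of all genes that edgeR and DESeq2 called in these comparisons are not given here.

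The test of whether the IL1A+TNF difference depended on genotype gave 27 lower members (median -0.70, background 7.24%), led by Gabrg1 (-1.11, SE 0.240, FDR = 5.35e-03), Gabrd (-0.95), Glra3 (-1.14), Grm2 (-0.86), Gria1 (-0.90) and Grin1 (-0.91). Without the 2 retinas it gave 0, with a median of 0.09 and a background of 0%, and 4 members at an unadjusted p under 0.05. With the second batch alone it gave 0 with the 2 retinas in (median -0.52, background 0%), and edgeR and DESeq2 gave 0 in the fit of both batches. The share of all genes called by edgeR and DESeq2 is not given here. Grin1, for example, was at 53.8, 46.6, 29.5, 5.24, 5.33 and 46.8 CPM in Sarm1-/- IL1A+TNF retinas. In the WT IL1A+TNF retinas of the second batch Grin1 was at 34.8, 37.8, 28.5, 51.7, 45.0 and 47.4 CPM. The fit of both batches also held the 10 WT IL1A+TNF retinas of the first batch, not listed here. Outside replicates 4 and 5, the Sarm1-/- values (29.5 to 53.8) overlapped those of WT in the second batch (28.5 to 51.7).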

How the data were processed

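RNA was measured in 109 whole mouse retinas. According to the submitters' processing notes, the authors used STAR 2.7.9a for alignment to mm10 and counted read pairs per gene with featureCounts of Subread 2.0.1; the deposited values are raw counts, not normalized. The annotation release and the strand setting of the counting are not given in the sources used here. Gene symbols, positions and exon lengths came from GENCODE M21, and promoter windows from RefSeq GRCm38.p6. The receptor genes and lists were chosen with earlier results of these data known.

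Counts were filtered with filterByExpr (minimum count 10, minimum total 15, proportion 0.7, large group size 10), scaled with TMM (CPM use these library sizes) and tested in R 4.3.3 with limma 3.58.1 on voom weights (edgeR 4.0.16, statmod 1.5.0). In 2 rounds of voom and duplicateCorrelation, mouse was a random block. The estimated correlation within mice was 0.0515 at day 2 of the first batch, 0.284 at day 14, 0.0794 at day 35, -0.0763 in the second batch and 0.00525 in both batches of day 2. The terms were treatment and sex in the first batch, and group, sex and batch (as the labels name it) over both batches. The p-values were adjusted by Benjamini-Hochberg over all genes tested, and an FDR under 0.05 was called. For PBS retinas of 3 days an F test was used, with no block. Eyes of 1 mouse are paired through the mouse numbers of the labels.

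Receptor genes with the smallest FDR are named in each comparison (12 for IL1A+TNF at day 2, with the 5 largest changes, and 6 in the others), beside members of a class described. Some members that this rule selects are counted but not reported here, and none was put in their place. The tests were checked on simulated counts with known changes. DESeq2 1.42.0, edgeR, other filters and scalings, a fixed mouse factor, and fits without single retinas were run as alternatives. Fits without the 2 Sarm1-/- retinas that stood apart were added after seeing the data.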

Additional observations from a re-analysis of the deposited data

Results flagged for a closer look

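In groups of 4 to 10 retinas, a single retina far from the others was looked for in the 13 receptor genes with the smallest FDR or the largest changes under IL1A+TNF and in the median over all receptor genes, 154 groups in all. It was found in 7, and chance alone gives about 1 in 20. The median receptor gene was at -0.54 in IL1A+TNF replicate 2 of the first batch, the lowest of 10. Grm8 was at 36.9 CPM in TNF replicate 7 of day 35, the lowest of 9, and Gabbr1 at 259.8 CPM in the same retina, the highest of 9. Gabra4 was at 11.4 CPM in WT PBS replicate 2 of the second batch, the highest of 5. Gabra3 was at 28.2 CPM in IL1A replicate 8, the lowest of 9. Gria2 was at 145 CPM in PBS replicate 2 of day 35 and at 141 CPM in TNF replicate 2 of day 14, each the lowest of 6.

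In direct tests of differences between treatments or genotypes, IL1A+TNF was lower than IL1A for 7 receptor genes, and differed from the sum of both cytokines for 4. Of all genes, 4.68% were called lower in the first test and 1.82% in the second. The difference made by IL1A+TNF depended on genotype for 27 receptor genes, and for 0 of them without Sarm1-/- IL1A+TNF replicates 4 and 5. Of all genes, 7.24% were called lower in that test, and 0% in either direction without replicates 4 and 5. Those 2 retinas were not picked out by the search for a single far retina, since each lies beside the other.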

How the results depend on the processing

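Counts of receptor genes called were recomputed under other filters, scalings (RLE factors, library totals), tools and terms. For IL1A+TNF against PBS at day 2 they ran from 30 to 41 over 10 settings, with 30 under library totals (5 higher, 25 lower). The main fit called 38, against 50.4% of all genes. Mouse as a fixed factor also gave 30, against 37.1%. Of 1325 recomputed values of named receptor genes, 1175 kept their direction and side of the threshold, 133 kept the direction only and 17 turned. With mouse as a fixed factor (replicate block), IL1A against PBS gave 1 (6.76% of all genes called), WT of the second batch 33 (29.6%) and Sarm1-/- 0 (0%). That fit tests mice with both eyes only, and it moved no other count by over 1.5 times. TNF at day 2 gave 1 by DESeq2 and 1 by edgeR, and the departure from additivity gave 2 with no filter. For counts in this section that stand without a share of all genes, that share is not given.

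Without the 2 Sarm1-/- retinas, WT of the second batch gave 40 (38.8% of all genes called) and Sarm1-/- 10 (13%). Sarm1-/- gave 26 with the second batch alone (30.8% of all genes called) and 1 with both changes (4.74%). Sarm1-/- against WT with IL1A+TNF gave 1 by DESeq2, and 0 by edgeR, with the second batch alone (0.656% of all genes called), without the 2 retinas (0.898%) and with both changes (0.302%). The dependence on genotype gave 0 under each of DESeq2, edgeR, the second batch alone (0% of all genes called), without the 2 retinas (0%), and both changes (0%). Without them, values turned to positive against WT with IL1A+TNF (second batch alone, then both batches): Grin1 0.10 and 0.00383, Gabrd 0.15 and 0.0572, Grm2 0.17 and 0.0526, Gria1 0.12 and 0.0568, Gabrg1 0.22 and 0.11. For the dependence on genotype in the second batch alone they turned to 0.0183 for Gabrg1, 0.11 for Gabrd, 0.17 for Glra3, 0.22 for Grm2, 0.0789 for Gria1 and 0.24 for Grin1, and over both batches to 0.0348 for Grin1. The cause was not tested.

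Leaving out 1 retina at a time gave 35 to 40 for IL1A+TNF, 12 to 19 for IL1A, 0 to 1 for TNF at day 2 (1 without TNF replicate 6), 4 to 14 for IL1A+TNF against IL1A, 1 to 7 for the departure from additivity, and 0 to 0 at days 14 and 35. It gave 1 to 5 for WT of the second batch (1 without IL1A+TNF replicate 3 or PBS replicate 4, 5 without IL1A+TNF replicate 5) and 41 to 45 for Sarm1-/-. It gave 0 to 42 for Sarm1-/- against WT with IL1A+TNF and 0 to 37 for the dependence on genotype, each 0 without Sarm1-/- IL1A+TNF replicate 4 or 5, and 16 for the latter without Sarm1-/- PBS replicate 5. The shares of all genes called in these fits are not given here, so the counts show only how far each rests on 1 retina. Depth limits only the rarest genes: Gabra6 and Gabrp could not be tested in the main fits. Gabrp was tested in the fit of both batches without the 2 retinas.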
